A study of Mus musculus with 12 samples.

Results

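The 34 genes described here encode the machinery with which the endoplasmic reticulum (ER) takes in, folds and disposes of proteins, together with sensors that adjust it. They were taken by gene name from the deposited tables, and every name matched, giving 34 of 49315 genes. By function they fall into 15 chaperones and folding enzymes, 9 genes of ER-associated degradation (ERAD) and 3 genes that sense or relay the unfolded protein response (UPR). The other 7 encode subunits of the channel, signal peptidase and associated proteins through which new chains enter the ER. The class called the 3 sensors below holds the membrane sensors Ern1 and Atf6 and the transcription factor Xbp1. All 34 passed the filter on low counts, as did 16844 genes in all, and the lowest count of any of the 34 in any library was 132 reads, for Derl3.

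The RNA came from MIN6, a mouse insulinoma line that stands in for the insulin-making β cell, labelled wild type in all groups. Each of 4 groups held 3 libraries. In the first group amino acids and Rap were given back for 3 h (Rap cells), in the second amino acids alone were given back for 3 h (re-added cells), in the third amino acids were withheld for 16 h (starved cells), and the fourth was the untreated control. The labels neither spell out Rap nor give its dose or how long cells of the first pair of groups had been without amino acids. The labels do not state whether replicate libraries were grown as separate cultures. The p-values therefore compare groups with the variation among 3 libraries, and that variation may be technical only.

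Proteins bound for secretion enter the ER through the Sec61 channel, lose their signal peptide, gain glycans and disulfide bonds, and fold with the help of chaperones led by BiP (Hspa5). Chains that fail are passed back to the cytosol and degraded, which is ERAD. When unfolded chains accumulate, the membrane sensors IRE1α (Ern1), ATF6 (Atf6) and PERK (Eif2ak3) start the UPR. IRE1α splices the mRNA of Xbp1, and the factors XBP1 and ATF6 then raise transcription of chaperone and ERAD genes, while PERK lowers translation and favours that of ATF4. The β cell makes very large amounts of proinsulin and leans on this machinery heavily. ATF4 is also the effector of the response to missing amino acids, so a starved secretory cell engages part of the same network by another kinase. Gene counts do not show the splicing of Xbp1.

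Sequences that link several of the genes were looked for first. The ER stress element is a DNA motif bound by ATF6 together with NF-Y: CCAAT, then 9 bases of any kind, then CCACG. In RefSeq promoter windows of build GRCm38.p6, which run from 250 bases before to 50 bases after the start of a gene, it was searched on both strands. A window was given for 28 of the 34 genes. Of these 28, 9 (32.1%) held the motif, against 37 of 27025 genes with a window (0.137%), the 9 included. Motif and genes were both picked as known parts of the ER stress response, so the contrast is not a test. The 9 were Hspa5, Hsp90b1, Pdia6, Calr, Canx, Dnajc3, Creld2, Syvn1 and Derl3, with 2 matches in Hsp90b1. A shorter form, ER stress element II, is ATTGG and CCACG set 1 base apart. It was found in Herpud1 and Dnajb11, and in 12 of 27025 genes (0.0444%). The match in Dnajb11 lies within the window but after the start, inside the counted gene, and is not printed. The UPR element core TGACGTGG, held by 0.714% of genes, and the amino acid response form TGATGNAAT, held by 1.08%, were in none of the 28 windows. A match is a description of letters and not a binding site, and a window without one says nothing about the factor. The stretches below carry the motif in genes that moved differently between the groups, and are shown to compare them with the levels that follow. Each is read on the strand of the gene, 5′ to 3′, with both ends of the motif in capitals. Where CGTGG stands before ATTGG, the ER stress element lies on the opposite strand.
Hspa5, chr2:34772005-34772063, + strand: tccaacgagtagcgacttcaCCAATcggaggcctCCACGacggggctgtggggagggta
Creld2, chr15:88819500-88819558, + strand: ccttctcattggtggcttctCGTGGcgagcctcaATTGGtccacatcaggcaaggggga
Calr, chr8:84847055-84847113, - strand: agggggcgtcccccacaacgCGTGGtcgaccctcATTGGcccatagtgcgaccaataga
Canx, chr11:50325780-50325838, - strand: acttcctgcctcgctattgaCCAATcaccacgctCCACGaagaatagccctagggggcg
Derl3, chr10:75893222-75893280, + strand: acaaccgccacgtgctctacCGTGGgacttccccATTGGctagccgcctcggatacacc
Herpud1, chr8:94386357-94386407, + strand: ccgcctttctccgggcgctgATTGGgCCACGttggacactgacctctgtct
The match lay 47 bases before the RefSeq start in Hspa5, 108 in Creld2, 144 in Calr, 127 in Canx and 138 in Derl3, and the shorter form lay 42 bases before it in Herpud1. The stretch of Hspa5 lies within the span of the counted gene, because its first annotated exon base is upstream of the RefSeq start.

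Library totals ran from 18555958 to 25631056 counted reads. All 12 β-cell markers were present in every group, and they summed to 52280 to 56594 CPM in Rap cells, 47464 to 52965 in re-added cells, 49851 to 51716 in starved cells and 58276 to 74394 in control cells. The 5 markers of α and δ cells summed to 250.2 to 268 CPM, 256 to 276, 173 to 186 and 272 to 314 in the same groups, lowest in starved cells as the 34 genes were. Markers of other cells differed between libraries: 30 markers of fibroblasts, leukocytes and endothelium summed to 94.3, 92.1 and 88.7 CPM (read counts scaled to the library total) in Rap cells, 663, 98.1 and 98.3 in re-added cells, 1654, 108 and 777 in starved cells, and 1676, 1983 and 1906 in control cells. None of the 30 was at 0 in any group, and 18, 28, 29 and 29 of the 30 reached 1 CPM in these groups. Lung epithelium markers followed the same libraries (38.5 to 45.9, 52.0 to 658, 77.1 to 1411 and 1433 to 1716 CPM), and acinar markers stayed under 1 CPM. Their part in the results was not tested beyond a covariate fit on the summed marker level and fits on libraries of like marker level. The latter were chosen after seeing the data. Calls lost under these fits in starved over control and re-added over starved cells are given by name or within a number of alternatives. For single genes against control cells after re-addition, calls with the covariate are not given. MIN6 is a single line and the labels name no other cells, so the source of the other-cell marker RNA is not known. Other cells in a culture and RNA or reads from another sample cannot be told apart here.

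Taken as a whole, the 34 genes held 2.48% ± 0.0255 of counted reads in Rap cells, 2.45% ± 0.0281 in re-added cells, 1.91% ± 0.0497 in starved cells and 2.09% ± 0.0972 in control cells (SD, n = 3 each). The lowest starved library (1.87%) and the highest (1.96%) lay below every control library (2.01% to 2.196%), and all 6 libraries given amino acids back lay above them (2.42% to 2.51%). Per length, on the TPM scale averaged over the 12 libraries, the most abundant were the disulfide isomerase P4hb (2533), the lectin chaperone Calr (2442), GRP94 (Hsp90b1, 1706), BiP (Hspa5, 1678) and the isomerase Pdia3 (1235). The least abundant were Derl2 (36.5), Atf6 (37.9), Derl3 (39.8) and Sel1l (47.1).

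**Figure D1:**
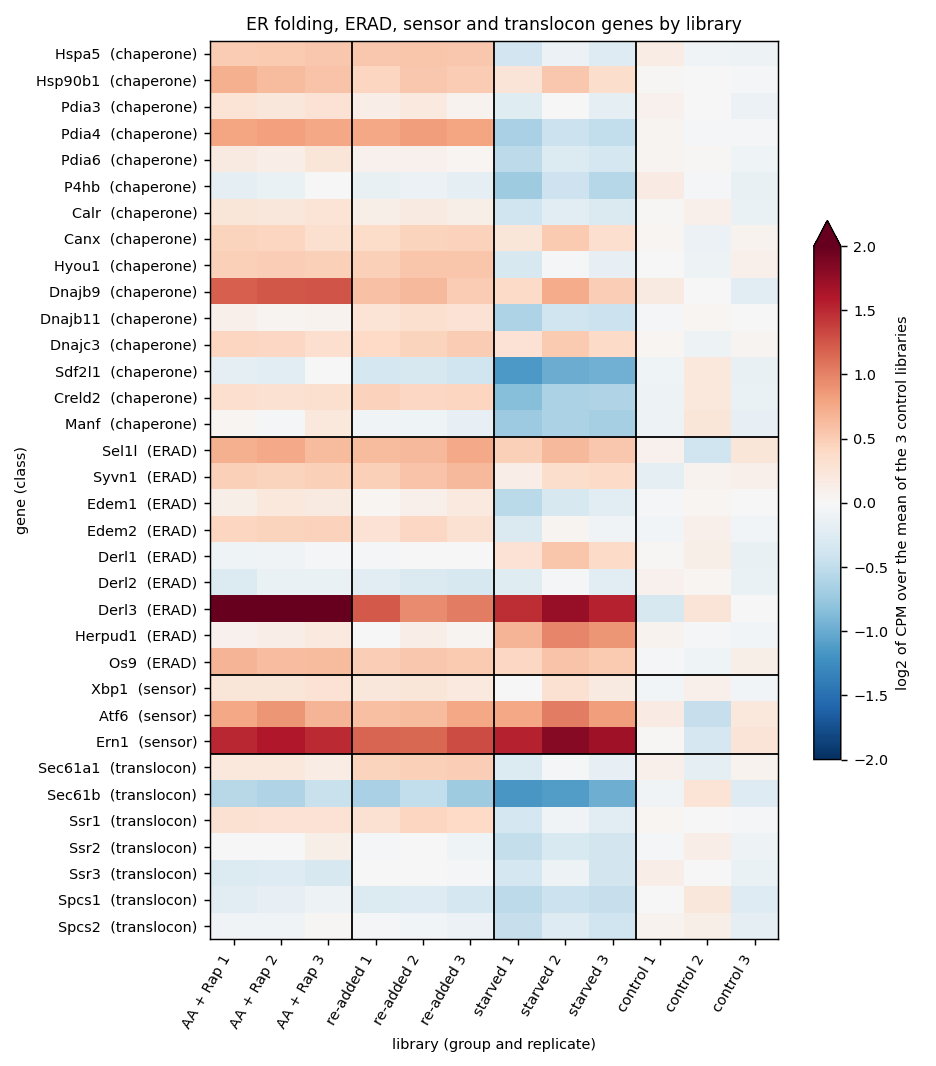
Each row is a gene, grouped by class, and each column is a library; colour gives log2 of CPM over the mean of the 3 control libraries, capped at 2.0. Derl3 and Ern1 are the darkest rows in the Rap and starved libraries, while Sdf2l1 and Sec61b are the darkest blue rows of the starved libraries, at 2.04-fold and 2.12-fold below control cells.

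Starvation, which asks what 16 h without amino acids does to these mRNAs, split the genes by role. Of the 34 genes, 12 were higher and 16 lower in starved than in control cells (edgeR quasi-likelihood test, adjusted p under 0.05), where 24.3% of all tested genes were higher and 14.6% lower. The median log2 fold change was -0.16 over the 34 genes and 0.01 over all tested genes. Among the chaperones 4 were higher and 9 lower, with a median of -0.30. Among the ERAD genes 6 were higher and 1, Edem1, lower, with a median of 0.41. Of the sensors Ern1 and Atf6 were higher and Xbp1 did not pass. Among the translocon genes 0 were higher and 6 of 7 lower, with a median of -0.37.

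These directions depend on the scale more than in the other comparisons. Upper-quartile scaling placed the median of all genes at -0.13 and called 2961 genes higher and 3679 lower, against 4101 and 2458 with TMM, and limma on TPM placed it at 0.15 with 5388 higher and 1984 lower. The 34 genes then gave 11 higher and 21 lower, and 13 higher and 13 lower. None of the 28 called genes reversed under the 20 alternatives, and 18 kept their call under all of them. With starved replicate 1 alone against the 3 control libraries, which it resembles in other-cell markers, 5 were higher (Ern1, Derl3, Atf6, Herpud1 and Os9) and 15 lower, where 9.25% of tested genes were higher and 8.88% lower. The lone starved library takes the spread of the other groups there. Gene length also moved with this comparison: the median log2 fold change was -0.24, 0.03 and 0.22 over short, middle and long tested genes, 3 sets of equal size (bounds of 2695 and 5082 exon bases), and -0.47, -0.19 and -0.16 over the 9, 16 and 9 of the 34 genes in them. Control replicate 2 also stood apart from the other controls by length, with a slope opposite to that of starved over control cells. Its difference was 0.18, 0.04 and -0.16 over short, middle and long tested genes, and 0.32, 0.05 and -0.15 over the 34 genes. The part of length in the result was not tested. Without control replicate 2 the counts were again 12 higher and 16 lower.

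Most chaperone and translocon mRNAs were higher in re-added than in starved cells. A rise or fall on re-addition here means this difference between the groups. How long re-added cells had been without amino acids is not given, so a course in time was not measured. In re-added against starved cells 20 of the 34 genes were higher and 4 lower (edgeR, adjusted p under 0.05), where 18.4% of tested genes were higher and 18.8% lower. The median log2 fold change was 0.29 over the 34 genes and -0.06 over all tested genes. Among the chaperones 11 were higher and 0 lower, with a median of 0.45, and among the translocon genes 6 were higher and 0 lower, with a median of 0.35. The ERAD genes divided into 3 higher (Syvn1, Edem1 and Edem2) and 3 lower (Herpud1, Derl1 and Derl3), and of the sensors Ern1 was lower and the others did not pass. On starved replicate 2 and re-added replicates 2 and 3, which are alike in other-cell markers, 13 were higher and 4 lower, where 9.37% of tested genes were higher and 10.8% lower. Of the called rises, those of Pdia3, P4hb, Syvn1, Edem2, Ssr2, Ssr3 and Spcs2 were lost there, with log2 fold changes of 0.12 to 0.37.

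Adding Rap to the amino acids changed few of these mRNAs past the test. In Rap against re-added cells 2 of the 34 genes were higher, Derl3 and Dnajb9, and 0 lower (edgeR, adjusted p under 0.05). Of all tested genes 4.55% were higher and 3.43% lower, so the count of higher genes is near the share over all. The median log2 fold change was 0.07 over the 34 genes and 0.00 over all tested genes. A miss at the threshold does not show equality: among the 32 genes that did not pass, 6 passed in at least 1 of 19 distinct alternatives, chiefly Sec61a1 (9 alternatives), Dnajb11 (8) and Ssr3 (8), each lower in Rap cells. Both Derl3 and Dnajb9 passed in all 19. The second and the third comparison share the re-added libraries, and the first and the second share the starved libraries, so they are not independent of each other.

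**Figure D2:**
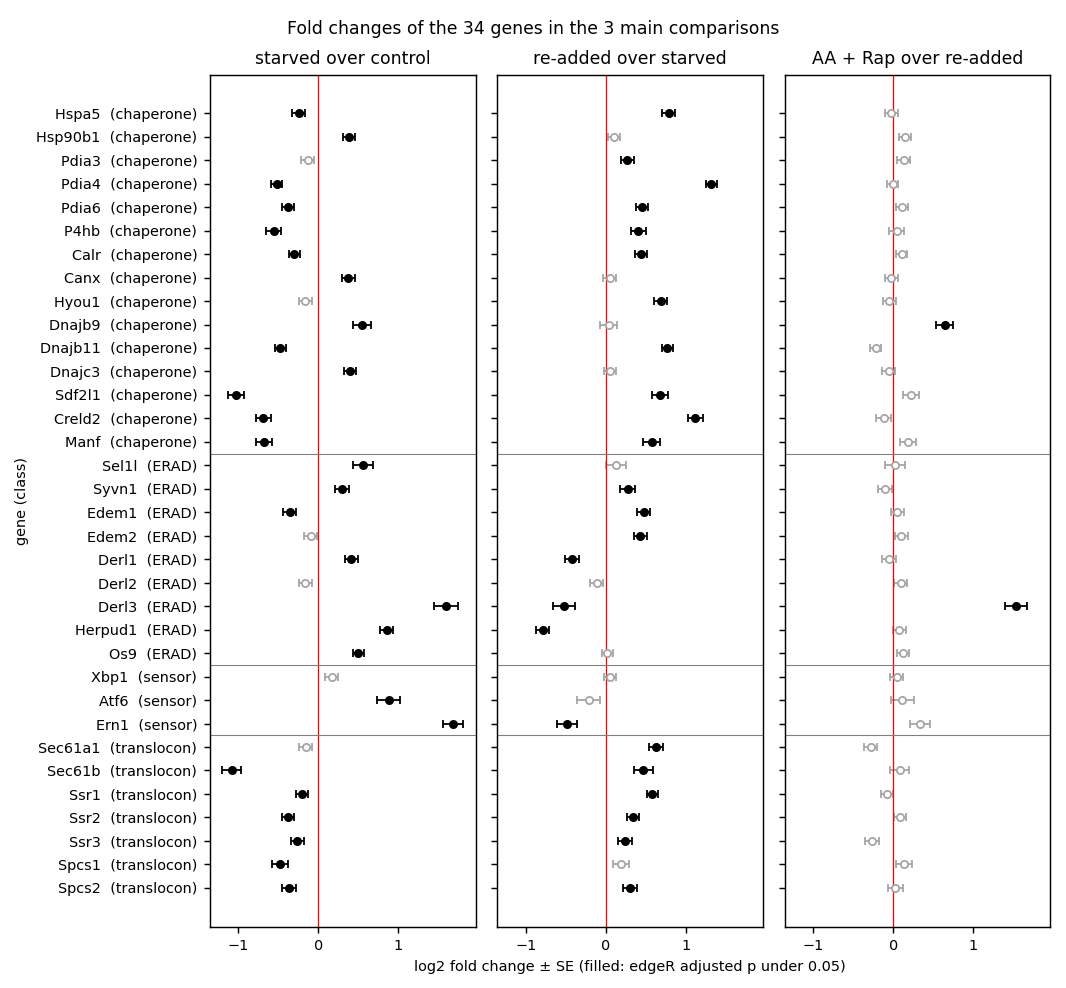
Points give the log2 fold change with its standard error for each gene in starved over control, re-added over starved and AA + Rap over re-added cells; filled points passed the edgeR test at an adjusted p under 0.05. Filled points lie on both sides of 0 in the first panel (12 and 16), mostly to the right in the second (20 and 4), and number 2 in the third.

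The chaperone BiP (Hspa5, chr2:34771970-34777547, + strand) is the main Hsp70 of the ER and the protein that holds the sensors inactive. It had 3085, 3113 and 3160.3 CPM in Rap cells, 3150.5, 3208 and 3149 in re-added cells, 1663, 2017 and 1818 in starved cells, and 2410.3, 2084 and 2035 in control cells. Every library given amino acids back stood above every control library, and every starved library stood below. Re-added cells had 1.73-fold the starved level (log2 fold change 0.79 ± 0.08, SE, edgeR adjusted p = 1.97e-05) and 1.46-fold the control level (adjusted p = 0.000414). The difference between starved and control cells was small, at -0.25 ± 0.08 (adjusted p = 0.0307), and missed the threshold under 9 of 20 alternatives, including without control replicate 1. Between Rap and re-added cells it was -0.02, with a 95% interval of -0.20 to 0.16.

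Pdia4 (chr6:47796141-47813430, - strand), a protein disulfide isomerase of the ER, showed the largest rise of the 34 genes on re-addition. It had 579, 595 and 573 CPM in Rap cells, 576, 599 and 582 in re-added cells, 214, 248 and 239 in starved cells, and 347, 331 and 327 in control cells. The starved, control and re-fed libraries formed separate bands with no overlap. The re-added level was 2.50-fold the starved level (1.32 ± 0.07, SE, adjusted p = 1.16e-07) and 1.75-fold the control level (0.80, adjusted p = 7.89e-06), while starved cells were at -0.52 ± 0.07 against control (adjusted p = 0.000127). Between Rap and re-added cells the difference was -0.01, with a 95% interval of -0.15 to 0.14.

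Creld2 (chr15:88819646-88826681, + strand) encodes an ER-resident protein linked to disulfide chemistry and is a known ER stress gene. Its levels were 206, 202 and 203 CPM in Rap cells, 225, 217 and 220.1 in re-added cells, 90.8, 106 and 108 in starved cells, and 153, 189 and 149 in control cells. Starved libraries were the lowest and re-added libraries the highest, with no overlap between any pair of groups. The log2 fold change was -0.69 in starved over control cells (adjusted p = 0.000182) and 1.12 in re-added over starved cells (adjusted p = 4.3e-06). Rap cells lay at -0.12 from re-added cells (adjusted p = 0.487).

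Sdf2l1 (chr16:17130138-17132383, - strand), a partner of ER Hsp40 proteins that helps BiP, fell most among the chaperones. It had 291, 287 and 332 CPM in Rap cells, 261, 266 and 253 in re-added cells, 149.9, 168 and 170.4 in starved cells, and 312, 387 and 299 in control cells. Starved cells held 2.04-fold less than control cells (log2 fold change -1.03, adjusted p = 1.84e-05). Unlike Hspa5, Pdia4 and Creld2, it stayed below control after re-addition, at -0.36 (adjusted p = 0.0138), though well above starved cells at 0.68 (adjusted p = 0.000276). In Rap cells the level overlapped that of control cells.

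Of the other 11 chaperones, 5 were lower in starved than in control cells and 7 were higher in re-added than in starved cells. Lower in starved cells were Manf (-0.68), a secreted folding factor, P4hb (-0.56), the Hsp40 Dnajb11 (-0.48), Pdia6 (-0.38) and Calr (-0.30). On re-addition Dnajb11 rose by 0.77, the BiP exchange factor Hyou1 by 0.69, Manf by 0.57, Pdia6 by 0.45, Calr by 0.44, P4hb by 0.41 and Pdia3 by 0.27. The call of Pdia3 was lost under 3 of 20 alternatives (the marker covariate, without re-added replicate 2, and libraries of like marker level), and that of P4hb on libraries of like marker level. After re-addition Hyou1 (0.52), Hsp90b1 (0.50) and Dnajb11 (0.29) were above control cells, while P4hb (-0.15), Pdia6 (0.07), Calr (0.14), Pdia3 (0.13) and Manf (-0.10) did not pass the test against control. The counts of Manf may include reads of Dcaf1, which overlaps it on the opposite strand over 146 of 3524 exon bases, since the strand setting of the counting is not given in the sources used here. Calr has a named pseudogene, whose reads may be shared with it.

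Of the 15 chaperones 4 were higher in starved than in control cells, near the share over all tested genes (24.3%). They were Dnajb9 (0.55), Dnajc3 (0.40), Hsp90b1 (0.39) and the lectin chaperone Canx (0.37), the partner of Calr in glycoprotein folding. None of the 4 passed between re-added and starved cells, with log2 fold changes of 0.04 to 0.11. In Rap over starved cells the 4 were at 0.68, 0.00, 0.25 and 0.03 in the order named. Dnajb9 and Hsp90b1 passed there (edgeR adjusted p = 0.000559 and 0.0184). With starved replicate 1 alone against the controls, a fit with fewer libraries, the 4 did not pass but kept their direction, at 0.41, 0.30, 0.27 and 0.26 in the same order (adjusted p = 0.0642, 0.0553, 0.0545 and 0.0993). Dnajc3 (P58IPK) had 286, 280.1 and 267 CPM in Rap cells, 278, 288 and 301 in re-added cells, 257, 302 and 274 in starved cells, and 218, 196 and 219 in control cells, so that the control libraries were below all the others. Calr and Canx, which both carry the ER stress element, thus differed in opposite directions between starved and control cells.

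Dnajb9 (ERdj4, chr12:44205897-44210068, - strand) is an Hsp40 that represses IRE1α and a classic target of XBP1. It was 1 of the 2 genes called higher in Rap than in re-added cells. For that reason it is named in detail, after its values were seen. It had 395, 409 and 411 CPM in Rap cells, 261, 270.0 and 246 in re-added cells, 227, 289.7 and 242 in starved cells, and 196, 174 and 148 in control cells. Rap libraries stood above all others and control libraries below all others, while re-added and starved libraries overlapped. Rap cells held 1.56-fold the re-added level (0.65 ± 0.11, SE, adjusted p = 0.00355) and 2.34-fold the control level (1.23, adjusted p = 1e-05).

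Among ERAD genes Derl3 (chr10:75893398-75895941, + strand), a derlin of the retrotranslocation complex, varied most across the groups. It had 35.4, 38.0 and 42.6 CPM in Rap cells, 14.8, 12.3 and 13.0 in re-added cells, 17.7, 21.4 and 18.5 in starved cells, and 5.10, 7.62 and 6.36 in control cells. The 4 groups did not overlap, with Rap cells highest, then starved, re-added and control cells. Rap cells had 2.90-fold the re-added level (1.53 ± 0.14, SE, adjusted p = 6e-05) and 6.11-fold the control level (2.61, adjusted p = 3.61e-07). Starved cells had 3.03-fold the control level (1.60 ± 0.15, adjusted p = 1.06e-05). The fall on re-addition, -0.52 (adjusted p = 0.0112), missed the threshold without re-added replicate 2. Its relative Derl1 shared these directions with a smaller rise, being higher in starved than in control cells (0.41) and lower on re-addition (-0.42). The first of these calls was lost on libraries of like marker level. Derl2 passed neither test (-0.16 and -0.11). Derl1 and Derl2 both differed little between Rap and re-added cells (-0.05 and 0.09). Derl2 shares 231 of 8049 exon bases with Mis12 on the opposite strand.

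Herpud1 (chr8:94386438-94395377, + strand), a membrane protein that assembles the Hrd1 ligase complex, was high in starved cells alone. It had 127, 132 and 138 CPM in Rap cells, 119.5, 132 and 124 in re-added cells, 193, 238 and 221 in starved cells, and 126, 119 and 116 in control cells. Starved libraries stood above all 9 others, which lay close together. The log2 fold change was 0.85 in starved over control cells (adjusted p = 1.59e-05), -0.79 in re-added over starved cells (adjusted p = 1.91e-05) and 0.06 in re-added over control cells (adjusted p = 0.547). Herpud1 and Pdia4 therefore moved in opposite directions in both of the first 2 comparisons.

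The ligase complex itself, Syvn1 (HRD1) with its adaptor Sel1l, was higher in every other group than in control cells. Sel1l had 166, 173 and 158 CPM in Rap cells, 158, 159.7 and 172 in re-added cells, 142, 159 and 148 in starved cells, and 108, 77.4 and 120.1 in control cells. Control libraries lay below all others, and control replicate 2 lowest. Its log2 fold change in starved over control cells (adjusted p = 0.00465) was 0.56 ± 0.13 (SE); the call was lost with only the 6 libraries of the comparison and on libraries of like marker level. Syvn1 was at 0.29 (adjusted p = 0.0201), lost under 6 alternatives, and rose further on re-addition by 0.27 (adjusted p = 0.0289), lost under 4. It shares 83 of 4772 exon bases with Mrpl49 on the opposite strand. Os9, a lectin that delivers glycoproteins to this ligase, was at 0.50 in starved over control cells and 0.02 in re-added over starved cells. Edem1, which trims mannose to mark chains for disposal, behaved like a chaperone gene, at -0.36 in starved over control cells and 0.47 in re-added over starved cells, and Edem2 rose by 0.43 in the second of these, a call lost on libraries of like marker level (0.37).

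The sensor Ern1 (IRE1α; chr11:106394650-106487852, - strand) showed the largest starvation rise of the 34 genes. It had 367, 391 and 363 CPM in Rap cells, 287, 284 and 316 in re-added cells, 373, 455 and 415 in starved cells, and 131, 101 and 154 in control cells. Control libraries were far below the rest. Starved cells had 3.22-fold the control level (1.69 ± 0.13, SE, adjusted p = 3.2e-06), and re-added cells, although below starved cells (-0.49, adjusted p = 0.01), were still above control cells by 1.201 on the log2 scale (adjusted p = 4.4e-05). Rap libraries lay above those of re-added cells and overlapped those of starved cells, at 0.34 over re-added cells (95% interval 0.06 to 0.61, adjusted p = 0.137).

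Atf6 (chr1:170704674-170867771, - strand) followed Ern1 with smaller differences. It had 140.4, 151 and 131 CPM in Rap cells, 124, 126 and 139 in re-added cells, 139, 166 and 146 in starved cells, and 91.7, 59.4 and 94.3 in control cells. Starved over control cells gave 0.88 (adjusted p = 0.000667) and re-added over control cells 0.67 (adjusted p = 0.00397), while re-added and starved cells did not differ beyond their spread (-0.21, adjusted p = 0.26). Control replicate 2 was the lowest library for both Ern1 and Atf6, each a long transcript set (8173 and 9231 exon bases). Xbp1 (chr11:5520659-5525893, + strand) varied least of the 3 sensors, with 411, 413 and 426 CPM in Rap cells, 407, 410.5 and 397 in re-added cells, 347, 428 and 395 in starved cells, and 335, 374 and 333 in control cells. It was at 0.17 in starved over control cells (adjusted p = 0.12) and passed only against control after re-addition, at 0.26 in Rap cells (adjusted p = 0.0163) and 0.22 in re-added cells (adjusted p = 0.0387).

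**Figure D3:**
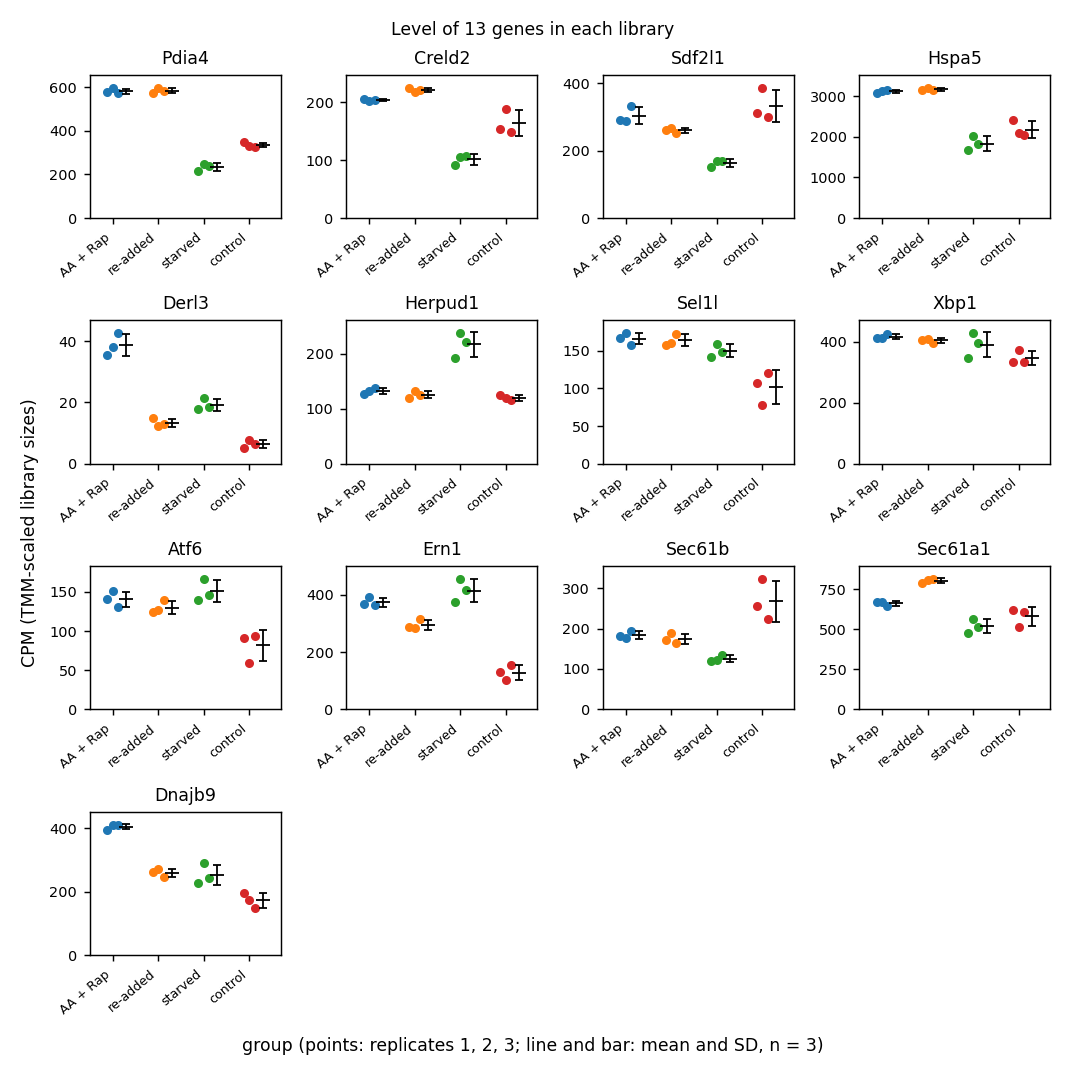
CPM on TMM-scaled library sizes is plotted for 13 genes, with a point per library and the mean with its SD (n = 3) beside them; the groups are AA + Rap, re-added, starved and control, and each axis starts at 0. Derl3 and Dnajb9 are highest in the Rap libraries, Herpud1 in the starved libraries, and Pdia4, Hspa5 and Creld2 lowest in the starved libraries.

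At the entry to the ER, Sec61b (chr4:47474658-47483242, + strand), the small β subunit of the channel, fell most. It had 182, 176 and 195 CPM in Rap cells, 170.4, 189 and 164 in re-added cells, 119, 123 and 136 in starved cells, and 255, 322 and 224 in control cells. Starved cells held 2.12-fold less than control cells (-1.09, adjusted p = 4.08e-05). Re-addition raised it by 0.47 (adjusted p = 0.00813) and left it at -0.61 against control (adjusted p = 0.00183), with Rap cells at -0.53 (adjusted p = 0.00312).

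The pore subunit Sec61a1 (chr6:88503579-88518905, - strand) took a different course. It had 669, 673 and 646 CPM in Rap cells, 789, 811 and 816 in re-added cells, 480.4, 565 and 518 in starved cells, and 622, 513 and 609 in control cells. Starved and control libraries overlapped (-0.16, adjusted p = 0.153), and re-added libraries stood above all others, at 0.63 over starved cells (adjusted p = 0.000119) and 0.47 over control cells (adjusted p = 0.00112). Rap libraries lay below re-added libraries with no overlap, at -0.28 (95% interval -0.46 to -0.10, adjusted p = 0.062), a difference that passed under 9 of 19 distinct alternatives.

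The TRAP subunits Ssr2 and Ssr1, which assist translocation, and the signal peptidase subunits Spcs1 and Spcs2 were lower in starved cells by log2 fold changes of -0.38, -0.21, -0.47 and -0.37. The call of Ssr1 was lost under 11 of 20 alternatives. Ssr3 (-0.26) had starved and control libraries that overlapped, and its call was lost under 4, including libraries of like marker level. On re-addition Ssr1 rose by 0.58, Ssr2 by 0.35, Spcs2 by 0.30 and Ssr3 by 0.24, and Spcs1 stood at 0.18 (adjusted p = 0.168). The call of Ssr3 was lost under 8 of 20 alternatives, including the marker covariate and without each Rap replicate, that of Spcs2 under 2 and that of Ssr2 under 1. Spcs1 shares 276 of 1546 exon bases with Glt8d1 on the opposite strand, and Spcs2 has a named pseudogene.

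Against control cells, both re-fed groups had more of the genes higher than lower, some of them, such as Hspa5, Pdia4 and Creld2, lower than control in starved cells. In Rap over control cells 19 of the 34 genes were higher and 2 lower, where 27.7% of tested genes were higher and 25.3% lower, and in re-added over control cells 19 were higher and 4 lower, where 24.8% and 24.5% were. All 3 sensors were higher in both. Among the chaperones 10 were higher and 0 lower in Rap over control cells, and 9 higher and 1 lower in re-added over control cells. Of the 7 translocon genes 1 was higher and 2 lower in Rap cells, and 2 higher and 2 lower in re-added cells. With the marker level as a covariate the counts came to 6 higher and 1 lower in Rap cells, where 6.06% of tested genes were higher and 5.60% lower, and to 8 and 1 in re-added cells, where 8.44% and 8.35% were. No control library was close to these groups in marker level. In Rap over starved cells, where 20.2% of tested genes were higher and 23.9% lower, 22 of the 34 were higher and 2, Derl1 and Herpud1, lower. There 13 chaperones, 6 translocon genes and 3 ERAD genes (Derl3, Edem1 and Edem2) were higher.

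The 9 genes with an ER stress element did not share a direction in starved over control cells. Hsp90b1, Canx, Dnajc3, Syvn1 and Derl3 were higher and Hspa5, Pdia6, Calr and Creld2 lower. The 17 genes with a window and neither form of the motif gave 4 higher and 9 lower in starved over control cells. In re-added over starved cells 5 of the 9 were higher and 1 lower, against 10 and 1 of the 17. In Rap over starved cells 6 of the 9 were higher and 0 lower, against 11 and 0 of the 17. In re-added over control cells 7 of the 9 were higher and 0 lower, against 8 and 4 of the 17. In Rap over control cells 8 of the 9 were higher and 0 lower, against 9 and 2 of the 17. The exception there was Pdia6 (0.18, edgeR adjusted p = 0.0563). Shares over all tested genes stand above, as do the smaller counts against control cells with the marker covariate. A part of the motif in these counts was not tested.

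Other genes of the pathway, 90 listed from general knowledge with 89 tested, are read against the shares over all tested genes given above. In starved over control cells 24 were higher and 25 lower, in re-added over starved cells 35 higher and 16 lower, and in Rap over re-added cells 6 higher and 2 lower. The share of higher genes in starved cells was near that over all tested genes (24.3%). None of the 14 translocation genes was higher in starved cells and 9 were lower, and on re-addition 10 were higher and 0 lower. Of 21 folding genes 3 were higher and 11 lower in starved cells, and 11 higher and 1 lower on re-addition. Of 14 genes of glycan transfer and trimming 3 were higher and 3 lower in starved cells, the higher ones near the share over all tested genes. On re-addition 5 of these 14 were higher and 1 lower. Of 24 ERAD genes 8 were higher and 1 lower in starved cells, with 7 higher and 5 lower on re-addition, the lower ones near the share over all tested genes (18.8%). Of 16 genes that control the UPR 10 were higher and 1 lower in starved cells, and 2 higher and 9 lower on re-addition.

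**Figure D4:**
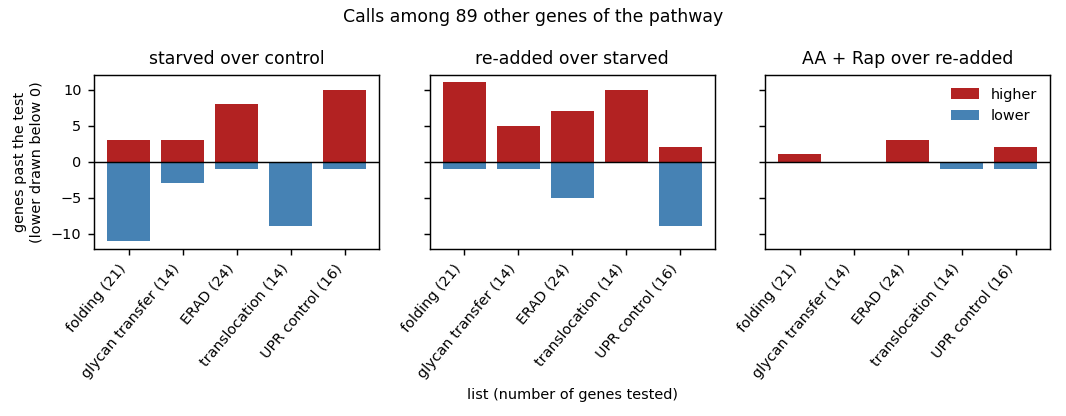
Bars count the genes of 5 lists, none of them among the 34, that passed the edgeR test, with higher genes above 0 and lower genes below, in starved over control, re-added over starved and AA + Rap over re-added cells. Translocation genes lie only below 0 in the first panel (9 lower) and only above it in the second (10 higher), while UPR control genes count 10 higher in the first and 9 lower in the second.

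The third sensor, PERK (Eif2ak3), averaged 86.6 ± 5.38 CPM in Rap cells, 80.1 ± 7.76 in re-added cells, 76.9 ± 9.09 in starved cells and 59.8 ± 11.6 in control cells (SD, n = 3 each). It was at 0.36 in starved over control cells and just missed the threshold (edgeR adjusted p = 0.0505). Atf6b, the relative of Atf6, went the other way from it: 191 ± 6.98 CPM in Rap cells, 195 ± 1.76 in re-added cells, 126 ± 11.7 in starved cells and 167 ± 10.4 in control cells, at -0.40 in starved over control cells (adjusted p = 0.00167) and 0.63 on re-addition (adjusted p = 6.94e-05).

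The rule names further UPR control genes by the size of their change or outright, among them Atf4, Ddit3, Trib3, Ppp1r15a and Ppp1r15b. Eif2ak3 and Atf6b, also named by it, are given above, and Wfs1, Bloc1s1 and Mbtps1 below. Atf4 averaged 192 ± 12.4 CPM in Rap cells, 304 ± 9.26 in re-added cells, 428 ± 43.4 in starved cells and 251 ± 25.9 in control cells. It rose by 0.77 in starved cells (adjusted p = 8.51e-05), fell by 0.50 on re-addition (adjusted p = 0.00146) and was lower with Rap than without, at -0.66 (adjusted p = 0.0013). CHOP (Ddit3), a stress factor that ATF4 induces, was at 1.23 in starved over control cells, -0.46 in re-added over starved cells and -0.26 in Rap over re-added cells (adjusted p = 0.0549 for the last). Trib3, another target of ATF4, was at 2.101, -2.26 and -0.32 in the same order, the last not past the test (adjusted p = 0.29). The phosphatase subunits Ppp1r15a (1.05 and -0.27) and Ppp1r15b (0.74 and -0.63), which undo the block of translation, were higher in starved than in control cells and lower on re-addition. Herpud1 and Ern1 had the same pair of directions, and Hspa5, Pdia4 and Creld2 the opposite pair.

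Slc35b1, a transporter reported to bring ATP into the ER, averaged 159 ± 4.19 CPM in Rap cells, 175 ± 2.64 in re-added cells, 71.6 ± 3.32 in starved cells and 178 ± 31.2 in control cells. Its log2 fold changes were -1.31 in starved over control cells (adjusted p = 3.49e-06) and 1.29 in re-added over starved cells (adjusted p = 2.77e-06). Ostc, of the complex that attaches glycans, was at -1.01 and 0.87, and Sec61g, the γ subunit of the channel, at -1.12 and 0.60, close to Sec61b (-1.09 and 0.47). Wfs1, an ER membrane protein of the β cell, did not differ between starved and control cells beyond the spread (0.03, adjusted p = 0.838) and rose by 0.97 on re-addition. Between Rap and re-added cells Mbtps1, the protease that activates ATF6, was higher at 0.41 (adjusted p = 0.0246), as was the ERAD factor Selenok at 0.45 (adjusted p = 0.0429). Srp68 of the signal recognition particle was lower at -0.35 (adjusted p = 0.0257). Bloc1s1, a known substrate of IRE1α cleavage, was higher at 0.51 (adjusted p = 0.0155). It averaged 14.2 CPM in Rap cells, 9.98 in re-added cells, 15.9 in starved cells and 14.7 in control cells. The re-added group was thus the low one, and Rap over control cells gave -0.05 (adjusted p = 0.74).

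Within the starved group the libraries differed in a shared way that depended on the scaling. On TMM-scaled sizes replicate 1 was the lowest for 33 of the 34 genes (97.1%), against 54.5% of all tested genes, and the order from low to high of replicate 1, then 3, then 2 held for 28 of the 34 (82.4%), against 39.2% of all tested genes. Replicate 1 also had the most other-cell marker RNA of the 3 (1654 CPM) and replicate 2 the least (108 CPM). The TMM factor moves every gene of a library alike and was 1.085 in replicate 1, 0.958 in replicate 2 and 1.004 in replicate 3. On raw library totals replicate 1 was lowest for 15 of the 34 genes (44.1%), against 26.8% of tested genes, and the full order held for 9 (26.5%), against 14.2%. Hspa5 had 1663, 2017 and 1818 CPM in the 3 replicates on TMM-scaled sizes and 1803, 1931 and 1824 CPM on raw totals. Without starved replicate 1 the counts in starved over control cells were 13 higher and 16 lower, and in re-added over starved cells 20 and 4.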

How the data were processed

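RNA-seq of MIN6 cells gave 12 libraries in 4 groups of 3, grouped by the labels. Per the labels' protocols RNA was taken with TRIzol and a column and sequenced as paired reads of 150 bases. The values are raw read counts per Ensembl gene, deposited by the authors; per the submitters' processing notes Subread 2.0.1, limma 3.46.0 and build GRCm38.p6 were used. The sources used here name no strand setting and no annotation release. The authors also deposited TPM values, which equal counts over exon length within 5.0e-05. They give gene names and levels per length.

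Counts were fitted with edgeR 4.0.16 in R 4.3.3: filterByExpr (minimum count 10, total 15), TMM, all 12 libraries in 1 quasi-likelihood fit with 8 residual degrees of freedom, Benjamini-Hochberg adjustment over 16844 genes, threshold 0.05. CPM uses TMM-scaled sizes, except marker sums. The fit was tested on simulated data. Alternatives were upper-quartile factors, DESeq2 1.42.0, no filter, the 6 libraries compared, a replicate block, limma 3.58.1 on log2(TPM + 1) for genes of mean TPM of at least 1, a marker covariate and each library left out. The 34 genes and all lists were chosen with earlier results of these data known. Genes given library by library are the 3 sensors and those with the largest called log2 fold changes of each class (4 chaperones, 3 ERAD, 2 translocon), plus Dnajb9 and Dnajc3, chosen after their values were seen. Other pathway genes named are 4 set by name (Eif2ak3, Atf6b, Ddit3, Ppp1r15a) and the 3 largest called rises and falls in each main comparison at 5 CPM or more. Replicate numbers are shared by the groups, but same-numbered libraries deviated together in some pairs and not in others. The correlations for replicates 1, 2 and 3 of re-added and starved cells were 0.84, 0.71 and -0.31, and those of the other group pairs ran from -0.26 to 0.11, so the numbers were not taken as pairs. Promoter sequences are from RefSeq, build GRCm38.p6. Library totals ran from 18555958 to 25631056 reads.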

Additional observations from a re-analysis of the deposited data

How the results depend on the processing

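No log2 fold change of the 34 genes reversed among called values in the 3 main comparisons under 20 alternatives (19 distinct in Rap over re-added cells, where libraries of like marker level equal those without re-added replicate 1). Of the called genes, 18 of 28 in starved over control cells, 16 of 24 in re-added over starved cells and 2 of 2 in Rap over re-added cells kept their call under all of them. On libraries of like marker level, 5 genes were higher in starved over control cells and 13 in re-added over starved cells. In Rap over re-added cells the count of lower genes was 3 with upper-quartile factors (4.92% of tested genes), 3 with DESeq2 (6.90%), 4 with limma on TPM (9.36%), 2 with the marker covariate (4.90%) and 4 with only the libraries compared (14.0%), where 4 were higher (12.04%). Leaving out a library in turn gave 2 to 3 higher and 0 to 3 lower there, with 2 lower without control replicate 2 and 3 without any starved replicate. With the marker covariate the counts fell to 8 higher and 1 lower in re-added over control cells and 6 higher and 1 lower in Rap over control cells. Leaving out a library gave 1 to 4 lower in re-added over control cells, with 1 without re-added replicate 3 and 2 without re-added replicate 2 or control replicate 1. In Rap over control cells it gave 1 to 4 lower, with 1 without Rap replicate 3 or control replicate 1 and 4 without control replicate 3. The cause of these shifts was not tested, except that smaller fits have fewer libraries. Over all tested genes, the split in re-added over control cells was 4172 higher and 4132 lower with TMM and 5093 and 2932 with limma on TPM, and in Rap over re-added cells 766 and 578 with TMM and 579 and 1443 with limma on TPM. With the replicate block the counts were 12 higher and 15 lower, 20 and 4, and 2 and 0 in the 3 main comparisons, and Ssr1 alone lost its call in the first. Where a group was reduced to 1 library, the fit gives that library the spread of the others. Libraries of like marker level could not be formed against control cells after re-addition.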
